A study of Homo sapiens with 9 samples.

Results

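This account concerns NTS, GAL, CHGA and NPTX1, 4 human genes for secreted proteins of nerve and endocrine cells, in a line of human embryonic stem cells and its early derivatives. The genes were taken by symbol from a table of 21417 gene symbols, with the transcript row of highest mean level, and each of them had 1 row. They were chosen by their RPKM levels in these same libraries across the 3 cell types, so the levels and differences of these 4 genes are given as a description without a test. NTS and GAL code for the neuropeptide precursors of neurotensin and galanin, and CHGA for the granin chromogranin A. NPTX1, neuronal pentraxin 1, is a secreted synaptic protein of the pentraxin family and is neither a neuropeptide nor a granin.

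The cells are H9, an established line of human embryonic stem cells, sampled in 3 groups of 3 libraries. Neuroectoderm, the precursor of the nervous system, was taken at day 5 after treatment with the BMP antagonist NOGGIN (200 nM) and SB431542 (10 μM), which blocks the receptors for activin and Nodal. Mesendoderm, the precursor of mesoderm and endoderm, was taken at day 5 in mTeSR1 medium with BMP4 (5 ng/ml), and undifferentiated hESC at day 0 on Matrigel in mTeSR1. All groups come from 1 cell line, and the labels do not say whether replicates were separate cultures, so SDs and p-values describe the spread between these libraries, which may be technical. Levels are the authors' RPKM, by name reads scaled to transcript length and library size. They correct for transcript length but not for base composition, which limits comparisons of levels between genes.

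Neuropeptides are made as longer precursors that enter the secretory pathway and are stored in dense-core granules. Proprotein convertases cut a precursor at pairs of basic residues, carboxypeptidase E trims the exposed basic ends, and PAM amidates the end of many peptides. Granins such as chromogranin A are acidic proteins of the same granules, take part in granule formation and are cut into peptides themselves. Neurotensin acts in gut and brain through its receptors and sortilin, galanin acts through its own family of receptors in many neurons, and neuronal pentraxins gather AMPA-type glutamate receptors at synapses.

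The coding sequence of NTS shows this layout, and is printed because NTS had the highest level of the 4 genes. Its reading frame in the GENCODE v29 transcript holds 170 codons and 3 lysine-arginine codon pairs, all near its end. The stretch that spans the 3 pairs lies in exon 4 of 4 at chr12:85882283-85882357 (GRCh38, plus strand), and capitals mark the 3 pairs.
NTS coding stretch: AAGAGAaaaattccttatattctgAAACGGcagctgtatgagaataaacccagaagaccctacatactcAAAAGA
The 6 codons after the first pair encode neuromedin N, and the 13 codons after the next pair encode neurotensin.

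Promoters were matched by symbol for 2 of the 4 genes, NTS and CHGA, from RefSeq (GRCh38.p14), whereas the authors' values were made on hg19. The 100 bases before each start are printed because the levels of the 2 genes separated in mesendoderm. Capitals mark matches to TGACNTCA, the cAMP response element with its centre base left free, and to the TATANA form of the core promoter box, searched on both strands. The NTS stretch is chr12:85874195-85874294 and the CHGA stretch is chr14:92923050-92923149, both on the plus strand, and the CHGA start used there lies inside the annotated gene, which begins at 92922664.
NTS promoter: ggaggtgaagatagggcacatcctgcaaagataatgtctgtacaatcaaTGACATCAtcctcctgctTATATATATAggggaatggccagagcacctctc
CHGA promoter: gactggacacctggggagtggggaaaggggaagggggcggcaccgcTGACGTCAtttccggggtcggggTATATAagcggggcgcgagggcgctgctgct
TGACNTCA begins 51 bases before the NTS start and 54 bases before the CHGA start, and 6.87% of 35116 promoters hold it in the 250 bases before the start. The canonical form TGACGTCA, which the wider motif includes, was found in the CHGA window and in 1.65% of promoters. TATANA was found in both windows and in 17.7% of promoters, with overlapping matches in NTS. TGANTCA, the AP-1 form, was found in neither window and in 6.57% of promoters. The motif with a free centre base was chosen after these sequences were seen, and a match is a description of the letters.

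The libraries had sizes of 36.4 to 69.5 Mreads (megareads), as estimated from the steps of their low values. The leading principal components held 52.5%, 29.9% and 12.3% of the variance, and the first and second separated the cell types. The next one set neuroectoderm replicate 1 (45.3), mesendoderm replicate 1 (19.4) and hESC replicate 2 (21.5) apart from the other libraries, at -32.9 to 3.8, and values without these 3 libraries are given beside several results. Markers fitted the labels for neuroectoderm and in part for mesendoderm. In neuroectoderm 5 of 7 neuroectoderm markers reached 1 RPKM in every library, with PAX6 at 28.4 ± 7.2 RPKM (SD, n = 3), while the forebrain genes SIX3 and LHX2 stayed under 0.5 RPKM. In mesendoderm all 7 streak and mesoderm markers reached 1 RPKM in every library, while of 6 endoderm markers SOX17, FOXA2, FOXA1 and AFP were under 0.5 RPKM in every library. The other endoderm markers were GATA6, at 5.59, 2.57 and 6.3 RPKM in mesendoderm against 0.06 to 0.12 RPKM in hESC, and CXCR4, at 1.23, 0.32 and 0.8 RPKM against 0.16 to 0.35 RPKM. The mesendoderm and hESC values of CXCR4 overlapped, and it was highest in neuroectoderm, at 6.03, 12.23 and 12.21 RPKM. Of 7 matched trophoblast and amnion markers 6 also reached 1 RPKM in every mesendoderm library, with a summed level of 65.8 to 96.1 RPKM, against 5.21 to 7.38 in hESC, and CGA at 0.02 to 0.06 RPKM. The 7 pluripotency markers summed to 354 to 369 RPKM in neuroectoderm and 399 to 456 RPKM in mesendoderm, against 828 to 892 RPKM in hESC. In neuroectoderm most of that sum was LIN28A, at 275 ± 10.7 RPKM against 307 ± 31.4 RPKM in hESC. NANOG was at 0.127 ± 0.0503 RPKM in neuroectoderm and 12.2 ± 5.56 RPKM in mesendoderm, against 22 ± 1.28 RPKM in hESC, and TDGF1 at 0.06 ± 0.0458 and 23.7 ± 10.1 RPKM, against 56.3 ± 4.26 RPKM. In bulk samples, more cells of a type and more RNA per cell cannot be told apart.

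NTS was abundant in mesendoderm and nearly silent in neuroectoderm. It stood at 0.33, 0.12 and 0.03 RPKM in the neuroectoderm libraries, at 341.14, 259.5 and 331.55 RPKM in the mesendoderm libraries, and at 3.61, 3.83 and 2.94 RPKM in the hESC libraries. Every mesendoderm library lay above every hESC library, and every neuroectoderm library below. The mean of 311 ± 44.6 RPKM in mesendoderm was 89.8-fold that of hESC (3.46 ± 0.464 RPKM, SD, n = 3 each), and on the log2(RPKM + 1) scale the difference was 6.12 ± 0.15 (SE). It was the 4th largest of 14473 differences upward on that scale, which understates differences of low genes. Among the 20580 symbols that are not small RNA genes, NTS ranked 111th by mean level in mesendoderm and 9022nd in hESC. In neuroectoderm the mean was 0.16 ± 0.154 RPKM, lower than in hESC by a log2 difference of -1.95 ± 0.15 (-2.05 without replicate 1, the highest). The neuroectoderm libraries held about 16.4, 10.3 and 1.5 reads at the length of the matched GENCODE transcript (1237 bases), and replicate 3 lay under the 0.0594 RPKM that 3 reads would give, so no fold is given. In neuroectoderm against mesendoderm NTS had the largest downward difference of all 14473 genes (-8.07 ± 0.15).

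GAL followed the same order of cell types over a smaller range. It was at 0.09, 0.03 and 0 RPKM in neuroectoderm, at 43.76, 73.45 and 59.96 RPKM in mesendoderm, and at 13.33, 6.44 and 16.57 RPKM in hESC, and no groups overlapped. The mesendoderm mean of 59.1 ± 14.9 RPKM was 4.88-fold the hESC mean of 12.1 ± 5.17 RPKM (log2 difference 2.25 ± 0.30). With hESC replicate 2, the lowest of its group, left out, this difference was 1.89. The 3 neuroectoderm values amount to about 3.0, 1.7 and 0 reads, and in replicate 3 a floor of 3 reads would be 0.0899 RPKM. The log2 difference of neuroectoderm from hESC was -3.57 ± 0.30, with no fold given for so few reads, and 40 of 14473 genes had a larger downward difference. Against mesendoderm it was -5.82 ± 0.30.

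CHGA was high in hESC and low in both derived cell types. Its levels were 0.16, 0.35 and 0.33 RPKM in neuroectoderm, 1.3, 0.62 and 0.74 RPKM in mesendoderm, and 26.59, 18.88 and 29.7 RPKM in hESC. All derived libraries lay far below the hESC libraries, and the lowest mesendoderm library lay above the highest neuroectoderm library. Neuroectoderm averaged 0.28 ± 0.104 RPKM, 89.5-fold below hESC (25.1 ± 5.57 RPKM), and mesendoderm 0.887 ± 0.363 RPKM, 28.3-fold below. The log2 differences were -4.33 ± 0.19 for neuroectoderm, with 15 genes lower still, and -3.78 ± 0.19 for mesendoderm, with 6 genes lower still. Neuroectoderm and mesendoderm differed by -0.55 ± 0.19, with 0.26 between their nearest libraries, and by -0.39 without mesendoderm replicate 1. Without the 3 libraries that stood apart this value was -0.33 and the difference of mesendoderm from hESC was -4.12.

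NPTX1 was likewise high in hESC alone, with the 2 derived cell types in the other order. It was at 0.43, 0.3 and 0.57 RPKM in neuroectoderm, at 0.1, 0.09 and 0.04 RPKM in mesendoderm, and at 27.22, 22.1 and 26.41 RPKM in hESC. The groups did not overlap, and the mesendoderm values are the lowest of NPTX1 anywhere, about 8.1 to 23.6 reads each on a transcript of 5122 bases. Neuroectoderm averaged 0.433 ± 0.135 RPKM, 58.3-fold below hESC (25.2 ± 2.75 RPKM), and mesendoderm 0.0767 ± 0.0321 RPKM, 329-fold below. On the log2 scale the differences from hESC were -4.19 ± 0.11 in neuroectoderm and -4.60 ± 0.11 in mesendoderm, where 2 genes were lower still. Neuroectoderm exceeded mesendoderm by 0.41 ± 0.11.

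**Figure D1:**
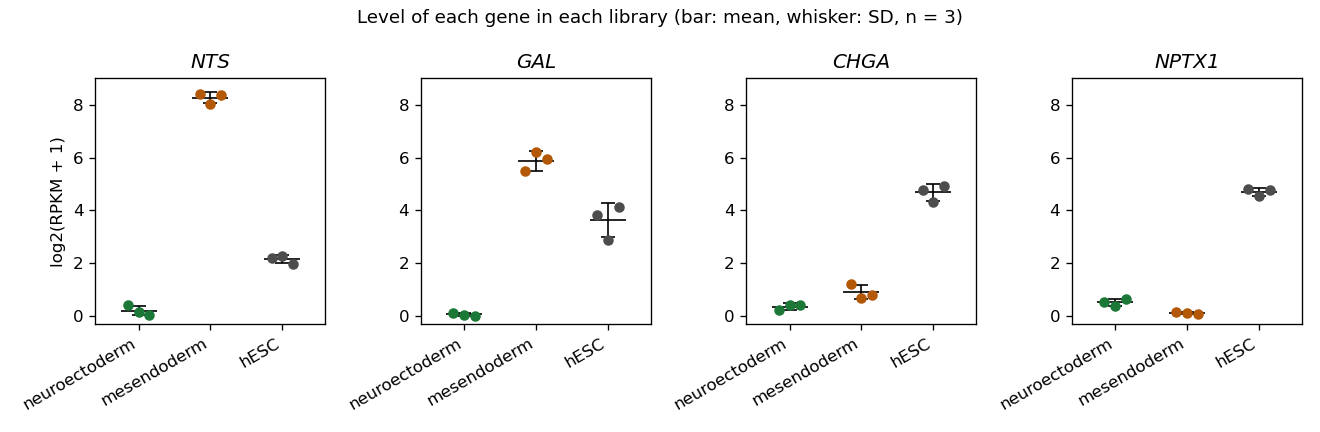
Levels of NTS, GAL, CHGA and NPTX1 as log2(RPKM + 1) in each library of neuroectoderm, mesendoderm and hESC. Points are libraries, the horizontal bar is the mean and the whisker the SD (n = 3). NTS and GAL are highest in mesendoderm, at means of 311 and 59.1 RPKM, CHGA and NPTX1 in hESC, at 25.1 and 25.2 RPKM, and all 4 are under 0.6 RPKM in every neuroectoderm library.

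The 4 genes were all low in neuroectoderm and split in mesendoderm. All 4 were lower in every neuroectoderm library than in every hESC library, where 51.9% of 14473 genes had groups that did not overlap (25.4% higher, 26.5% lower) and 44.2% were called different (21.9% higher, 22.3% lower). In mesendoderm against hESC 2 were higher and 2 lower without overlap, where 54.7% of genes did not overlap (26.0% higher, 28.7% lower) and 35.1% were called (17.0% higher, 18.1% lower). In neuroectoderm against mesendoderm 3 were lower and NPTX1 was higher without overlap, where 57.2% of genes did not overlap (27.8% higher, 29.4% lower) and 48.1% were called (24.0% higher, 24.1% lower). Since the genes were chosen for these values, nothing is read from those counts. With values rescaled to genes other than small RNA the split of called genes moved to 2049 higher and 3501 lower in neuroectoderm against hESC (3165 and 3228 as deposited) and to 1708 and 2805 in mesendoderm against hESC (2457 and 2620), and the median of all genes was -0.13 in both, against -0.02. The summed level of the 4 genes was 0.80 to 1.01 RPKM in neuroectoderm, 333.7 to 392.3 RPKM in mesendoderm and 51.25 to 75.62 RPKM in hESC, and in mesendoderm NTS alone made up most of it. The level of NTS was 3.53 to 7.8 times that of GAL in mesendoderm, and 0.177 to 0.595 times that of GAL in hESC. CHGA and NPTX1 stood at nearly equal levels in hESC, with ratios of 0.854 to 1.12, and at ratios of 6.89 to 18.5 in mesendoderm.

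**Figure D2:**
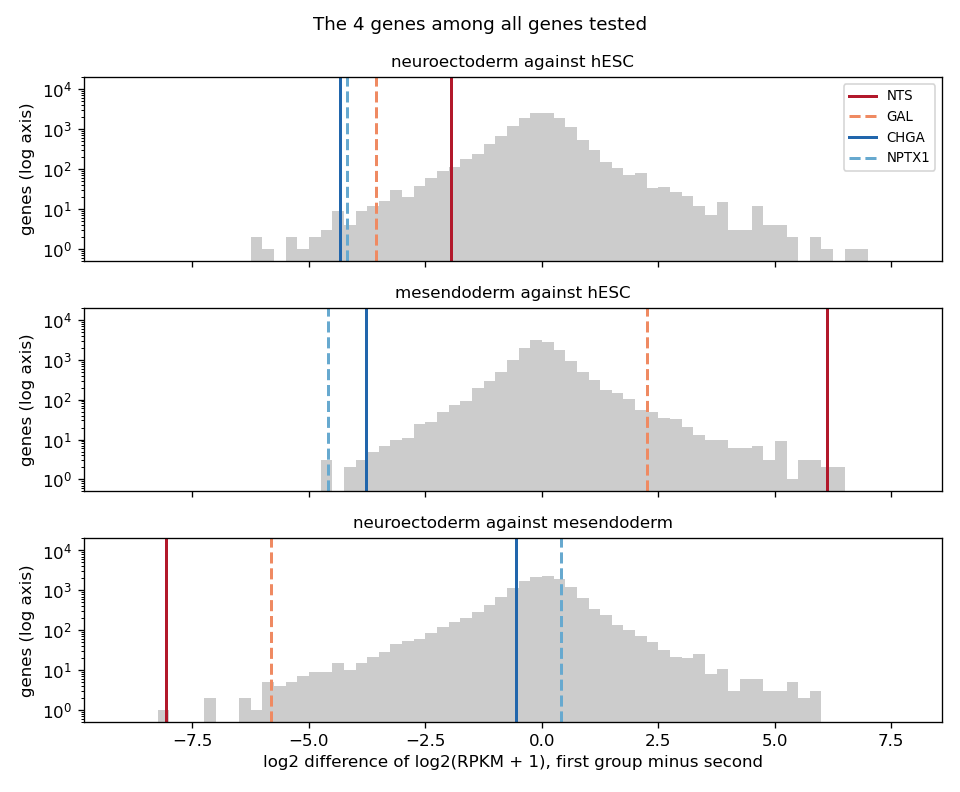
Log2 differences of log2(RPKM + 1) of all 14473 genes (grey histogram, genes per bin on a log axis) for 3 comparisons, with the 4 genes as vertical lines. In neuroectoderm against hESC all 4 lie left of 0, from -4.33 for CHGA to -1.95 for NTS. In mesendoderm against hESC NTS (6.12) and GAL (2.25) lie to the right and CHGA (-3.78) and NPTX1 (-4.60) to the left.

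Libraries of a group differed in ways that followed base composition. Across 13163 genes, the deviation of a library from its group mean had a Spearman correlation with GC content of -0.649 in hESC replicate 2, -0.595 in neuroectoderm replicate 1 and -0.318 in mesendoderm replicate 1, and of 0.215 to 0.619 in the others. The NTS transcript has 34.6% GC, lower than all but 0.585% of those genes, while GAL has 61.0%, CHGA 62.4% and NPTX1 57.6%, against a median of 49.8%. In hESC replicate 2 NTS was the highest of its group (0.12 above the mean on the log2 scale) and GAL (-0.73), CHGA (-0.37) and NPTX1 (-0.18) were the lowest. In neuroectoderm replicate 1 NTS (0.21) was the highest and CHGA (-0.14) the lowest, but GAL (0.07) was also the highest. In mesendoderm replicate 1 NTS (0.14) was the highest and GAL (-0.39) the lowest, but CHGA (0.30) and NPTX1 (0.03) were the highest. The part of base composition in these deviations was not tested. Without the 3 libraries that stood apart the 4 genes kept their directions in all 3 comparisons, with 6.11 for NTS and 2.09 for GAL in mesendoderm against hESC.

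Mesendoderm replicate 2 had the lowest NTS of its group and the highest GAL. The same library had more NANOG, a pluripotency factor, at 18.42 RPKM against 7.68 and 10.55 RPKM in replicates 1 and 3. It also had less of the mesoderm and amnion factor HAND1, at 41.85 RPKM against 85.3 and 79.09 RPKM. The homeobox gene CDX2 was lower as well, at 6.13 RPKM against 19.72 and 14.86 RPKM. The streak and mesoderm markers did not move together in this library. MESP1 and TBX6 were lowest there, like HAND1, and T lay between the other libraries. MIXL1 (86.81 RPKM against 41.84 and 76.17), EOMES (32.04 against 20.78 and 29.48) and GSC (2.86 against 1.12 and 2.82) were highest there. With 3 libraries this is a description, and the part of the cells' composition in it was not tested.

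**Figure D3:**
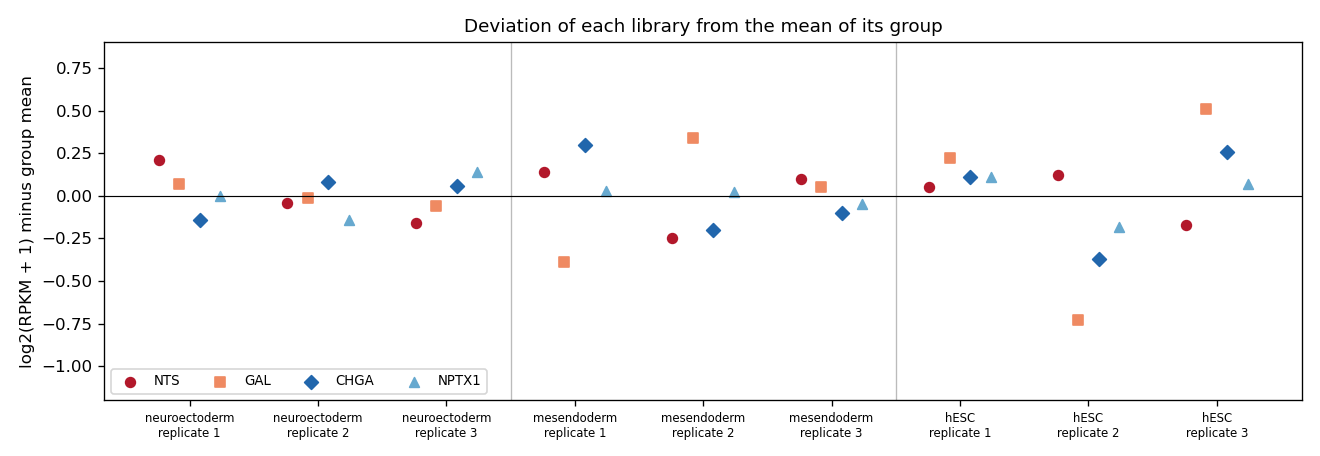
Deviation of each library from the mean of its group, in log2(RPKM + 1), for NTS, GAL, CHGA and NPTX1, with libraries along the x axis. The widest departures are those of GAL in hESC replicates 2 (-0.73) and 3 (0.51), and NTS departs the opposite way in both.

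NTS and GAL dominated the neuropeptide and granin transcripts of mesendoderm. Among 60 matched precursor and granin genes, NTS alone made up 65.8% to 76.5% of the summed RPKM of a mesendoderm library, against 2.08% to 3.61% in hESC. The order by mean level in mesendoderm was NTS, GAL, then adrenomedullin (ADM, 14.5 ± 1.68 RPKM). In hESC CHGA led (25.1 ± 5.57), followed by ADM (19.3 ± 3.86), with the granins SCG3 and SCG5 next. In neuroectoderm the granin-like SCG5 led (22.3 ± 6.81 RPKM), followed by ADM2 (6.40 ± 1.15), and 10 of the 60 genes reached a mean of 1 RPKM, against 16 in mesendoderm and 14 in hESC.

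Genes of the same peptide system were taken from 8 lists of 153 symbols. Of these 142 were matched, and the 77 that averaged 0.5 RPKM or more were tested. That average is over all 9 libraries, so a gene could pass the filter through 1 high group alone. The calls of such a gene follow in part from the filter. In neuroectoderm against hESC 14 of the 77 rose and 30 fell (57.1%, where 44.2% of all genes were called), with a median of -0.22, against -0.02 over all genes. In mesendoderm against hESC 15 rose and 31 fell (59.7%, against 35.1% of all genes), with a median of -0.22 against -0.02. In neuroectoderm against mesendoderm 24 rose and 29 fell (68.8%, against 48.1%), with a median of -0.11 against -0.01. Tests are limma's on log2(RPKM + 1), with Benjamini-Hochberg adjusted p over 14473 genes under 0.05.

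Other neuropeptide precursors were mostly low, with 15 of 51 matched genes tested. In neuroectoderm 3 of them rose and 5 fell against hESC (53.3%, against 44.2% of all genes). ADM, a vasodilator peptide, fell to 0.297 ± 0.104 RPKM in neuroectoderm, against 19.3 ± 3.86 RPKM in hESC (-3.95 ± 0.16, limma adjusted p = 2.46e-07). TAC3, the precursor of neurokinin B, fell to 2.03 ± 0.239 RPKM, against 6.16 ± 0.976 RPKM (-1.24 ± 0.14, adjusted p = 0.000108). The bombesin-like neuromedin B (NMB, -0.95 ± 0.30, adjusted p = 0.0309) and NMU (-0.71 ± 0.19, adjusted p = 0.0158) fell less. The call of NMB was lost without hESC replicate 1 (0.108) or 3 (0.0829) or neuroectoderm replicate 1 (0.0701), and that of NMU without hESC replicate 3 (0.0615). In mesendoderm 3 rose and 6 fell against hESC (60.0%, against 35.1%). Beside NTS and GAL, thyrotropin-releasing hormone (TRH) was at 3.33, 1.55 and 2.86 RPKM in mesendoderm, against 0.02 to 0.03 RPKM in hESC (1.77 ± 0.17, adjusted p = 7e-05). The natriuretic peptide gene NPPB (1.76 ± 0.19, adjusted p = 0.000109) and gastrin-releasing peptide (GRP, 1.60 ± 0.25, adjusted p = 0.00119) rose as well. Their means were 3.02 ± 1.17 and 2.45 ± 1.35 RPKM, far under NTS. TRH, NPPB and GRP are the 3 rises counted, and they passed the filter of 0.5 RPKM only through mesendoderm. They averaged 0.04, 0.54 and 0.213 RPKM in neuroectoderm and 0.0267, 0.157 and 0.0833 RPKM in hESC. Their rises thus follow in part from the filter. In neuroectoderm against mesendoderm 4 rose and 7 fell (73.3%, against 48.1%). These shares depended on the filter of 0.5 RPKM. With the filter off, 19 of 51 precursors were called in neuroectoderm against hESC, where 7017 of 21417 genes were called. In mesendoderm against hESC 15 of 51 were called, where 5698 of all genes were. For neuroectoderm against mesendoderm the counts were 20 of 51 and 7617 of all genes. All tests against hESC share the same 3 hESC libraries.

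The other granins did not form a block with CHGA. SCG3, which binds chromogranin A in granules, fell to 0.477 ± 0.165 RPKM in neuroectoderm, against 14.5 ± 1.70 RPKM in hESC (-3.39 ± 0.13, limma adjusted p = 1.93e-07), and less in mesendoderm, with 8.26 ± 0.883 RPKM (-0.74 ± 0.13, adjusted p = 0.0019). The ratio of CHGA to SCG3 was 0.0715 to 0.179 in mesendoderm, against 1.5 to 1.87 in hESC. CHGB, the closest relative of CHGA, was low throughout and fell in neuroectoderm (0.453 ± 0.129 RPKM) and mesendoderm (0.243 ± 0.0971 RPKM) against hESC (1.07 ± 0.0513 RPKM). It passed the filter of the test only through hESC. SCG5, a chaperone of the convertase PCSK2, was at 22.3 ± 6.81 RPKM in neuroectoderm, without passing the test (0.54 ± 0.21, adjusted p = 0.0696) and fell in mesendoderm, to 4.36 ± 0.675 RPKM, against 14.5 ± 1.22 RPKM in hESC (-1.54 ± 0.21, adjusted p = 0.000579). VGF was at 2.02 ± 0.327 RPKM in neuroectoderm, 1.46 ± 0.143 RPKM in mesendoderm and 1.46 ± 0.330 RPKM in hESC. Without neuroectoderm replicate 1 both SCG5 (adjusted p = 0.00113, and 0.000862 without the 3 libraries that stood apart) and VGF (0.0493) passed the threshold in neuroectoderm, and VGF also without hESC replicate 3 (0.0463), so that 4 of the 4 tested granins were called in place of 2 (2 rose and 2 fell), as they were with median ratio scaling. SCG2 and PCSK1N averaged under 0.5 RPKM in each group and were not tested.

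The enzymes that turn precursors into peptides went different ways in the derived cell types. The amidating enzyme PAM was at 75.37, 61.52 and 61.38 RPKM in neuroectoderm, against 9.75, 10.98 and 9.14 RPKM in hESC, and rose by 2.61 ± 0.12 (limma adjusted p = 7.01e-07). In mesendoderm PAM fell to 6.92 ± 0.652 RPKM (-0.47 ± 0.12, adjusted p = 0.0182). That call was lost without hESC replicate 2 (0.0635) or mesendoderm replicates 2 (0.0669) or 3 (0.0641), and with median ratio scaling (0.0585). Carboxypeptidase E (CPE) rose in both, to 41.8 ± 15.5 RPKM in neuroectoderm (3.12 ± 0.28, adjusted p = 2.82e-05) and 10.3 ± 1.33 RPKM in mesendoderm (1.27 ± 0.28, adjusted p = 0.00728), against 3.71 ± 0.878 RPKM in hESC. The convertase of the general secretory pathway, FURIN, rose in mesendoderm to 41.0 ± 3.74 RPKM, against 6.97 ± 1.19 RPKM in hESC (2.40 ± 0.25, adjusted p = 0.000108), and with it cathepsin L (CTSL, 1.35 ± 0.15) and the carboxypeptidases CPZ (0.93 ± 0.17) and CPD.

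The granule convertases themselves were scarce. PCSK1 was at 1.48 ± 0.282 RPKM in neuroectoderm, 0.320 ± 0.0624 RPKM in mesendoderm and 1.28 ± 0.706 RPKM in hESC. It fell in mesendoderm against hESC (-0.74 ± 0.20, limma adjusted p = 0.0193), a call that was lost without hESC replicate 1 (0.0514) or mesendoderm replicate 1 (0.0503), 2 (0.0576) or 3 (0.0502). PCSK2 averaged 0.327 to 0.397 RPKM in the 3 groups. Of 13 enzymes tested, 2 rose and 1 fell in neuroectoderm (23.1%, against 44.2% of all genes) and 6 rose and 3 fell in mesendoderm (69.2%, against 35.1%). The neuroectoderm count depended on the libraries, with 7 rises and 1 fall without neuroectoderm replicate 1, 4 and 1 without hESC replicate 2, and 8 and 2 without the 3 libraries that stood apart.

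Receptors for the peptides were nearly absent. NTSR1 averaged 0.0533 RPKM in neuroectoderm, 0.127 RPKM in mesendoderm and 0.313 RPKM in hESC, NTSR2 under 0.05 RPKM in each, and GALR1, GALR2 and GALR3 under 0.3 RPKM. The neurotensin-binding sortilin was abundant, with SORT1 at 13.1 ± 0.723 RPKM in neuroectoderm, 16.1 ± 0.652 RPKM in mesendoderm and 14.3 ± 1.75 RPKM in hESC, and it passed the test in no comparison against hESC (limma adjusted p = 0.443 and 0.266). Its relative SORL1 fell in neuroectoderm (-0.61 ± 0.10, adjusted p = 0.00141). Among 12 peptidases that break down peptides, 1 rose and 6 fell in neuroectoderm (58.3%, against 44.2% of all genes), and 0 rose and 2 fell in mesendoderm (16.7%, against 35.1%). Neurolysin (NLN), which cuts neurotensin, fell to 6.08 ± 0.950 RPKM in neuroectoderm (-1.65 ± 0.14, adjusted p = 1.82e-05) and 12.6 ± 1.23 RPKM in mesendoderm (-0.70 ± 0.14, adjusted p = 0.00384), against 21.1 ± 2.56 RPKM in hESC. Neprilysin (MME) fell in neuroectoderm, to 0.203 ± 0.0666 RPKM, against 3.09 ± 0.374 RPKM (-1.76 ± 0.27, adjusted p = 0.000815). The other mesendoderm fall, of TPP2 (-0.53 ± 0.14, adjusted p = 0.0196), was lost without hESC replicate 2 (0.0585) or mesendoderm replicates 2 (0.0579) or 3 (0.0721). LNPEP rose (0.75 ± 0.14, adjusted p = 0.00259) and DPP3 fell (-0.65 ± 0.15, adjusted p = 0.00648) in neuroectoderm against hESC. Against mesendoderm, the falls in neuroectoderm included ACE (-0.96 ± 0.15, adjusted p = 0.000814) and PREP (-0.82 ± 0.10, adjusted p = 0.000119).

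Of the pentraxins and AMPA receptor genes, 5 of 9 matched were tested. In neuroectoderm 2 rose and 2 fell (80.0%, against 44.2% of all genes), and in mesendoderm 0 rose and 5 of the 5 fell (against 35.1% of all genes called). Among these falls, GRIA1 (0.0467 against 0.307 RPKM in hESC) and PTX3 (0.107 against 0.823 RPKM) were already low in hESC. Both passed the filter of the test only through neuroectoderm, where they rose. NPTX2, the nearest relative of NPTX1, was at 4.55, 5.78 and 6.1 RPKM in neuroectoderm, 1.3, 2.39 and 1.84 RPKM in mesendoderm and 8.12, 6.13 and 9.3 RPKM in hESC. It fell in mesendoderm (-1.64 ± 0.18, limma adjusted p = 0.000153) and did not pass the test in neuroectoderm (-0.44 ± 0.18, adjusted p = 0.0805). It was called there without hESC replicate 2 (0.0335), without the 3 libraries that stood apart (0.0105) and with values rescaled to genes other than small RNA (0.0202). The level of NPTX1 was 0.0519 to 0.0945 times that of NPTX2 in neuroectoderm and 0.0217 to 0.0769 times in mesendoderm, against 2.84 to 3.61 times in hESC. The pentraxin receptor NPTXR fell in both derived cell types (-0.59 ± 0.13 and -0.74 ± 0.13, adjusted p = 0.00631 and 0.00247). The immune pentraxin PTX3 rose to 9.93 ± 1.06 RPKM in neuroectoderm, against 0.823 ± 0.0709 RPKM in hESC (2.58 ± 0.10, adjusted p = 1.99e-07). Of the AMPA receptor subunits that pentraxins gather, GRIA1 rose in neuroectoderm (1.57 ± 0.08, adjusted p = 1.1e-06) and GRIA4 fell (-0.97 ± 0.09, adjusted p = 3.61e-05).

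Of 17 tested genes of granule membranes and docking, 2 rose and 12 fell in neuroectoderm (82.4%, where 44.2% of all genes were called, median -0.84), and 4 rose and 12 fell in mesendoderm (94.1%, against 35.1%, median -0.59). Among the 8 that averaged at least 2 RPKM, 0 rose and 7 fell in neuroectoderm and 3 rose and 4 fell in mesendoderm. Over all genes at that filter, 2416 rose and 2453 fell in neuroectoderm, and 1879 rose and 1818 fell in mesendoderm. The number of genes tested at that filter is not given here, so no share is set beside these counts. Like CHGA, the vesicle protein synaptophysin (SYP) was highest in hESC, at 0.6 ± 0.201 RPKM in neuroectoderm, 0.207 ± 0.0404 RPKM in mesendoderm and 4.37 ± 0.760 RPKM in hESC. The priming factor UNC13A fell to 0.363 ± 0.0839 RPKM in neuroectoderm and 2.05 ± 0.592 RPKM in mesendoderm, against 11.5 ± 1.51 RPKM in hESC. The vesicular monoamine transporter SLC18A2 (-1.34 ± 0.10) and the small GTPase RAB3D (-1.33 ± 0.10) fell in neuroectoderm. SYP and SLC18A2 passed the filter of the test only through hESC. The mesendoderm rises were those of the synaptotagmins SYT7 (2.11 ± 0.18, limma adjusted p = 2.9e-05) and SYT4 (1.91 ± 0.10, adjusted p = 1.75e-06), of HID1, which acts in granule formation, and of RAB27A.

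Regulators of neuroendocrine genes were tested in 9 of 20 cases. REST, the repressor of many neuronal and granin genes, was at 19.6 ± 3.35 RPKM in neuroectoderm, 13.4 ± 1.56 RPKM in mesendoderm and 12.8 ± 1.46 RPKM in hESC, and rose in neuroectoderm (0.58 ± 0.15, limma adjusted p = 0.0124). That rise was not called with values rescaled to genes other than small RNA (adjusted p = 0.127), a scaling that moved the median of all genes from -0.02 to -0.13. The homeobox factor PROX1 rose in neuroectoderm (0.95 ± 0.10, adjusted p = 6.91e-05). Of the factors that bind cAMP response elements, CREB1 rose in neuroectoderm (0.56 ± 0.12, adjusted p = 0.00492), ATF1 fell (-0.68 ± 0.13, adjusted p = 0.00242) and CREM did not pass the test (adjusted p = 0.239). CREB1 and CREM lie outside the naming rule and were chosen for the promoter motif after their values were seen. In all 4 regulators rose and 1 fell in neuroectoderm (6 and 2 without the 3 libraries that stood apart, 2 and 1 with that rescaling), and in mesendoderm 2 rose and 0 fell, namely ISL1 (3.58 ± 0.16, adjusted p = 7.07e-07) and RCOR1 (0.58 ± 0.11, adjusted p = 0.0032, but 0.0871 with that rescaling). Without neuroectoderm replicate 1, 2 rose and 2 fell in mesendoderm. PROX1 passed the filter of the test only through neuroectoderm, and ISL1 only through mesendoderm. RCOR2 rose in neuroectoderm against mesendoderm (1.04 ± 0.32, adjusted p = 0.0264), a call lost without neuroectoderm replicate 2 (0.0792) or 3 (0.0891) or any mesendoderm replicate (0.0539 to 0.0837).

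Markers of neuroendocrine cells were near 0 in mesendoderm, where NTS and GAL were highest. All 10 markers of that list, among them SYP, INSM1, CHGB and NEUROD1, were under 0.5 RPKM in every mesendoderm library. Their summed level was 0.72 to 0.92 RPKM there, against 4.01 to 7.11 RPKM in neuroectoderm and 5.54 to 6.54 RPKM in hESC. In hESC 8 of the 10, all but SYP and CHGB, were also under 0.5 RPKM in every library, and most of the sum was SYP (4.37 ± 0.760 RPKM). The 5 matched markers of pancreatic and gut endocrine cells were also under 0.5 RPKM in every mesendoderm library. Among them INS, GCG and NEUROG3 were under 0.5 RPKM in every library of the other groups too. The 8 neuronal markers summed to 8.01 to 8.13 RPKM in neuroectoderm, 3.71 to 4.61 RPKM in mesendoderm and 9.63 to 10.9 RPKM in hESC.

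**Figure D4:**
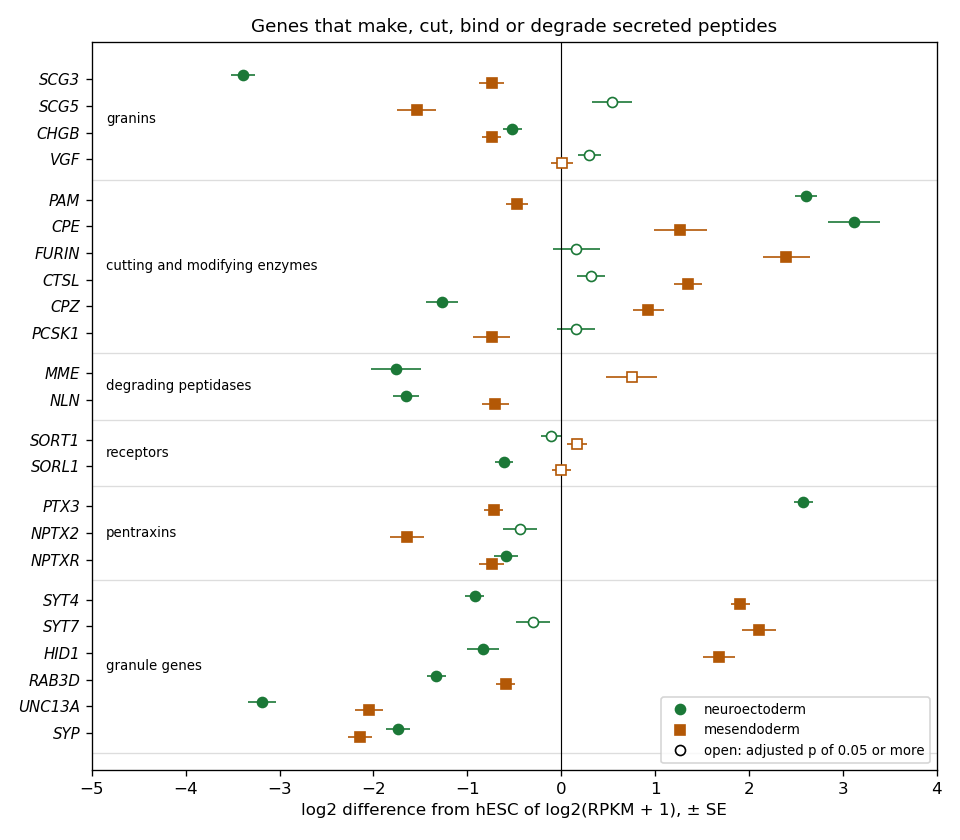
Log2 differences from hESC (± SE, log2(RPKM + 1)) of neuroectoderm (circles) and mesendoderm (squares) for granins, processing enzymes, peptidases, receptors, pentraxins and granule genes. Filled symbols have a limma adjusted p under 0.05. PAM lies at 2.61 in neuroectoderm and -0.47 in mesendoderm, FURIN at 2.40 in mesendoderm, and SCG3 at -3.39 in neuroectoderm.

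The nearest profiles were sought among 8042 genes averaging 5 RPKM or more, as the smallest root mean square difference over the 9 libraries of log2(RPKM + 1) after centring each gene. For NTS these were the secreted phospholipase PLA2G2A (0.414 log2 units), the BMP and activin pseudoreceptor BAMBI (0.836) and the granzyme inhibitor SERPINB9 (0.945). PLA2G2A averaged 0.0700 ± 0.0265 RPKM in neuroectoderm, 153 ± 14.2 RPKM in mesendoderm and 1.72 ± 0.304 RPKM in hESC. For GAL they were the glycosyltransferase gene B3GNT7 (0.340), osteopontin (SPP1, 0.493) and TRIML2 (0.540). CHGA and NPTX1 shared theirs, namely CUZD1 (0.278 and 0.392), the readthrough FAM24B-CUZD1 that shares exons with it (0.302 and 0.433) and the tryptophan-degrading enzyme IDO1 (0.399 and 0.321). IDO1 averaged 0.113 ± 0.0379 RPKM in neuroectoderm, 0.293 ± 0.0379 RPKM in mesendoderm and 31.0 ± 1.93 RPKM in hESC. Between the 4 genes themselves, CHGA and NPTX1 lay 0.456 apart and NTS and GAL 1.651, while NTS lay 4.229 from CHGA and 4.623 from NPTX1.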

How the data were processed

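Total RNA of 9 H9 libraries was depleted of ribosomal RNA and sequenced from Ion Total RNA-Seq libraries, per the labels' protocols. The values are RPKM that the authors computed and deposited for 38759 RefSeq transcripts. Per the submitters' processing notes, TopHat, TopHat2 2.0.13 and Bowtie2 were used with build hg19. No source used here gives the counting tool, its use of strand or the RPKM denominator.

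Each of 21417 symbols was represented by its transcript of highest mean. The 14473 genes averaging at least 0.5 RPKM entered 1 limma (3.58.1, R 4.3.3) model of log2(RPKM + 1) with group as term and a mean-variance trend. The code of this model was run on simulated data with independent noise in each gene and library. That noise lacks the shifts that followed base composition, so the run does not bear on their effect on the calls. Calls are Benjamini-Hochberg adjusted p-values under 0.05. Small RNA genes numbered 742. Depth came from low values of short single-exon genes, whole multiples of 1 read (within 0.1 read) for 94.3% to 97.4% of 192 to 240 values a library. Floors are 3 reads and cover counting error only. Replicates differed by more than counting noise (chi-square per gene 13.8 to 215.9), so each library counted once. Deviations of same-numbered libraries correlated at 0.229 to 0.392 between neuroectoderm and mesendoderm, and at -0.738 to 0.401 between either and hESC. Correlations between libraries of unlike number were not computed, so these values cannot show whether the numbers pair the groups. The labels do not give a pairing either.

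Genes and lists were chosen with earlier results of these data known. The text names the 4 genes, a fixed set of relatives, receptors and enzymes, up to 4 called genes of largest change per list and comparison whose higher group averaged at least 1 RPKM, and 3 nearest profiles per gene. CPD, RAB27A, NTSR2 and the factors set beside mesendoderm replicate 2 were named after their values were seen. Alternatives were the pseudocount, filter, scaling, transcript choice, trend, replicate block and left-out libraries. SPX was matched by its older symbol, and 11 symbols of the 8 lists were not matched. Some genes of the lists are not reported here by name.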

Additional observations from a re-analysis of the deposited data

Results flagged for a closer look

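NTS and GAL moved in opposite directions in the 2 derived cell types, with every neuroectoderm library under and every mesendoderm library over all hESC libraries. The log2 differences of NTS were -1.95 in neuroectoderm and 6.12 in mesendoderm, and those of GAL -3.57 and 2.25. The opposite movement of these 2 genes was not tested, since they were chosen for it.

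Of the other genes of the peptide system named by rule, 8 were called in opposite directions against hESC, with groups that did not overlap, and differed in the test of neuroectoderm against mesendoderm. The rule takes the largest called changes of each list, so this count follows in part from the choice. The share of all genes called in opposite directions is not given here, and nothing is read from the count. PAM (3.08), PTX3 (3.30), SYT9 (1.93), GRIA1 (1.89) and ADM2 (1.57) were higher in neuroectoderm. SYT4 (-2.84), HID1 (-2.51) and CPZ (-2.20) were lower. The fall of PAM in mesendoderm against hESC lost its call in some settings (limma adjusted p = 0.0585 to 0.0669).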

How the results depend on the processing

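All 12 differences of the 4 genes kept their sign under every alternative run. With a pseudocount of 0.1 the differences of neuroectoderm from hESC were -3.94 (NTS), -6.39 (GAL), -6.06 (CHGA) and -5.60 (NPTX1), and with 0.5 they were -2.60, -4.45, -5.02 and -4.79. Those of mesendoderm from hESC were 6.45 (NTS), -4.71 (CHGA) and -7.18 (NPTX1) with 0.1, and -4.21 (CHGA) and -5.48 (NPTX1) with 0.5. Those of neuroectoderm from mesendoderm were -10.38 (NTS), -8.74 (GAL), -1.36 (CHGA) and 1.58 (NPTX1) with 0.1, and -8.90, -6.76, -0.81 and 0.69 with 0.5. A smaller pseudocount widens differences of low genes by construction. Without the 3 libraries that stood apart CHGA in mesendoderm was at -4.12. With genes averaging at least 2 RPKM the calls among peptide system genes were 27 (neuroectoderm against hESC), 26 (mesendoderm against hESC) and 32 (neuroectoderm against mesendoderm), in place of 44, 46 and 53, since fewer genes were tested. Deviations of same-numbered libraries correlated at 0.392, 0.247 and 0.229 between neuroectoderm and mesendoderm, and at -0.738 to 0.401 between either and hESC. Correlations of unlike-numbered libraries were not computed, so these values do not show a pairing. With the replicate number as a block, 5643, 4224 and 6250 genes were called in those comparisons, in place of 6393, 5077 and 6965, and 41, 44 and 50 peptide system genes. That block covered all 9 libraries and so also paired hESC by number, a pairing that the labels do not give. The block also ended the call of NMB in neuroectoderm against hESC (adjusted p = 0.0616) and changed no other call of a named gene. Without the 3 libraries set apart 8416, 6811 and 8733 genes were called. PENK in neuroectoderm against mesendoderm (-1.48, limma adjusted p = 0.0357) was not called in 8 settings (0.0506 to 0.0987). Over all alternatives for named genes of the lists, 1654 values kept their side of the threshold, 36 lost their call and 11 gained one. Levels under about 0.1 RPKM rest on few reads, which limits folds for NTS and GAL in neuroectoderm and NPTX1 in mesendoderm.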

Other observations

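TPH1, the enzyme that starts serotonin synthesis outside the brain, was highest in neuroectoderm replicate 1 and hESC replicate 2, which stood apart. It was at 9.63, 0.71 and 0.64 RPKM in neuroectoderm, 0.22, 0.25 and 0.2 RPKM in mesendoderm, and 1.83, 9.56 and 1.06 RPKM in hESC. The opioid precursor PENK varied widely in mesendoderm, at 6.04, 0.27 and 2.56 RPKM, against 0.4, 0.23 and 0.14 RPKM in hESC. The cholecystokinin precursor CCK was at 1.28, 1.92 and 1.04 RPKM in neuroectoderm, 0.02, 0.03 and 0 RPKM in mesendoderm, and 0.75, 0.23 and 0.67 RPKM in hESC. TPH1 and CCK were chosen after their values were seen.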
